A study of Mus musculus with 14 samples.

Results

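The genes described here are 10 genes of the unfolded protein response (UPR) of the endoplasmic reticulum (ER): Hspa5, Xbp1, Ern1, Atf6, Dnajb9, Dnajc3, Herpud1, Sdf2l1, Creld2 and Manf. They were taken by symbol from 54446 gene identifiers, and all 10 were found in every library. RNA-seq was done on E14 mouse embryonic stem (ES) cells exposed to the mTOR inhibitor INK128 (mTORi), which puts ES cells into a dormant, slowly growing state. Wild-type (WT) cells were collected at 0, 24, 72 and 144 h, and cells labelled TET1/2 DKO, in which the genes of the DNA demethylases TET1 and TET2 were targeted, at 0, 24 and 72 h, with 2 libraries in each of the 7 groups. The 0 h cells received no inhibitor, and both lines grew feeder-free in medium with serum and LIF. The DKO line was derived from wild-type E14 cells with Cas9 and single-cell sorting, and the labels do not say whether its libraries come from more than 1 clone, so a difference between the lines cannot be told apart from a difference between clones.

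The ER folds secreted and membrane proteins. When unfolded proteins accumulate, sensors in its membrane, among them IRE1 (Ern1), ATF6 (Atf6) and PERK, signal to the nucleus. IRE1 splices the Xbp1 mRNA so that it encodes an active transcription factor, and ATF6 is cleaved in the Golgi to release another. Both factors switch on chaperones and degradation factors, and PERK slows translation and raises the transcription factor ATF4. The chaperone BiP (Hspa5) holds the sensors inactive and is itself a classical target of the response. mTOR promotes protein synthesis, which sets the load of proteins entering the ER.

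The promoter elements through which this response acts are short, and they are printed to show which of the 10 genes, and which of the genes with levels most like those of Hspa5, carry one. In the RefSeq table of promoters (build GRCm38.p6, 250 bases before to 50 after each start), 8 of the 10 genes had an entry, and Atf6 and Manf did not. The ER stress response element, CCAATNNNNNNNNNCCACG, was searched on both strands and stood in 39 of 32851 promoters (0.119%), among them those of Hspa5, Dnajc3 and Creld2. The related element ERSE-II, ATTGGNCCACG, stood in 12 promoters (0.0365%), among them that of Herpud1. Its last 5 bases are shared with the first element, so that 1 stretch can match part of both. In the following sequences, written 5′ to 3′ on the strand of the gene with 5 bases on each side, capitals mark the bases of the element that are fixed. All lie on the plus strand, and Creld2 holds the element on the opposite strand.

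Hspa5, chr2:34772020-34772048: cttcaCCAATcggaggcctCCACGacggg

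Dnajc3, chr14:118937822-118937850: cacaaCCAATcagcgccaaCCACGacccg

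Creld2, chr15:88819515-88819543: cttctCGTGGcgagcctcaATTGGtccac

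Herpud1, chr8:94386372-94386392: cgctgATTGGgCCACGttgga

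The Hspa5 match ran from 65 to 47 bases before the RefSeq start and that of Herpud1 from 52 to 42 bases before its own. The span of Hspa5 used for expression begins further upstream, at chr2:34771970, so the match lies within that span. The bases upstream of Herpud1, the gene with the largest fall, are shown whole (chr8:94386179-94386428, plus strand) with the fixed bases of its ERSE-II match in capitals.

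Herpud1 upstream: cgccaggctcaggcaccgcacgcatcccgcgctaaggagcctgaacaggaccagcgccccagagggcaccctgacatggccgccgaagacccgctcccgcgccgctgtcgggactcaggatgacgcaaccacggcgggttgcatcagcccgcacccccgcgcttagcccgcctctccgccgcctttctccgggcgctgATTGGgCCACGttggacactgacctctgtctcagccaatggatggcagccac

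The 7-base core of the UPR element, TGACGTG, was more common, in 661 promoters (2.01%), and Hspa5 was the only gene of the 10 with a match (agcaaTGACGTGagttg, chr2:34771928-34771944). No match to these letters was found within the 300 bases of the Xbp1, Ern1, Dnajb9 and Sdf2l1 promoters. With 1 mismatch allowed, the first element matched 1.5% of all promoters and 4 of the 8, ERSE-II 1.16% and 4 of the 8, and the core 39.1% and 5 of the 8. A match describes the letters of the sequence and does not show that a factor was bound there.

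Expression is given in TPM, a transcript abundance corrected for length and scaled to a fixed total per library, on 2 scales. Deposited TPM show the share of a gene within its library. Spike-in normalized TPM were obtained from them with a single factor for each library, which the study derived from ERCC RNAs, synthetic transcripts added to the samples. They show level relative to these RNAs. Each extraction started from the same number of cells, and the step at which the ERCC RNAs were added is not given in the sources used here. The factors lay between 1 (WT, 144 h) and 2.81 (DKO, 0 h). Both WT 0 h libraries share a factor of 2.11, whereas the 2 DKO 24 h libraries differ, with 2.24 and 1.36, as do the 2 DKO 72 h libraries, with 2.53 and 1.73. In bulk libraries, fewer expressing cells and less RNA per cell cannot be told apart. Fold changes are on the log2(TPM + 1) scale, which understates the change of low genes such as Ern1, and are given ± SE, with 2 libraries per group. A gene was called when its adjusted p (limma across all genes, Benjamini-Hochberg) was under 0.05. On the spike-in scale the median of all 18232 genes tested moved by −0.33 in WT after 24 h, −0.33 after 72 h and −0.83 after 144 h, and in DKO by −0.49 and then −0.12, so the changes of the UPR genes are also given relative to it.

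The labels were checked through the targeted genes. Tet2 stood at 15.9 to 22.2 deposited TPM in the 6 DKO libraries and at 96.0 to 143 in the 8 WT libraries. On the spike-in scale its log2 difference between DKO and WT was −1.93, −2.52 and −2.06 at the 3 times (adjusted p from limma, 0.0152, 0.000289 and 0.00228). Tet1 stood at 147 to 248 deposited TPM in the DKO libraries and at 191 to 349 in the WT libraries, with log2 differences between DKO and WT of −0.38, −0.51 and −0.31, called at 24 h only (adjusted p = 0.0229). On the spike-in scale they were −0.08, −0.42 and 0.11, and none was called. The level of the Tet1 transcript therefore does not show its loss. The guides of the study lie in internal exons, and gene-level TPM include the exons outside them, so these values do not check the Tet1 deletion. The study describes the deletions as covering the whole genes. It screened the clones by PCR and reported western blots for TET1 and TET2 as evidence of the knockouts, which were not examined here. DKO is used here as the name the labels give. All 6 pluripotency markers exceeded 1 TPM in every group, with a sum of 2193 to 2810 TPM. Mesendoderm markers summed to 1.28 to 2.86 TPM and fibroblast markers to 1.30 to 17.8 TPM. Markers of primitive endoderm summed to 13.1 to 43.3 TPM in most groups but to 106 to 185 TPM in the WT 24 h libraries and to 31.0 to 71.5 TPM in the DKO 24 h libraries. Neuroectoderm markers were lower at 24 h, at 32.1 to 35.0 TPM in WT against 83.7 to 93.9 TPM at 0 h and at 28.1 to 29.9 TPM in DKO against 73.2 to 81.9 TPM. Trophectoderm markers ranged from 14.3 to 58.9 TPM over all libraries. The part of these lists in the 24 h results was not tested.

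In untreated WT cells Hspa5 was by far the most abundant of the 10 genes, at 949 ± 107 spike-in normalized TPM (SD, n = 2), and made up 52.4% and 53.3% of the summed TPM of all 10 in the 2 libraries. Manf (253 ± 35.3), which encodes a secreted ER-resident trophic factor, Xbp1 (208 ± 26.5) and Creld2 (161 ± 9.93), an ER protein with a disulfide isomerase motif, followed. The spreads of Manf and Xbp1 overlapped. Sdf2l1, a component of an ER chaperone complex, stood at 68.7 ± 6.58, and Atf6 (42.0 ± 5.21), Dnajc3 (41.8 ± 8.58) and Herpud1 (37.2 ± 5.02) could not be ordered by their spread. Dnajb9 stood at 25.5 ± 7.34 and Ern1, the sensor itself, was lowest at 8.31 ± 1.82.

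**Figure D1:**
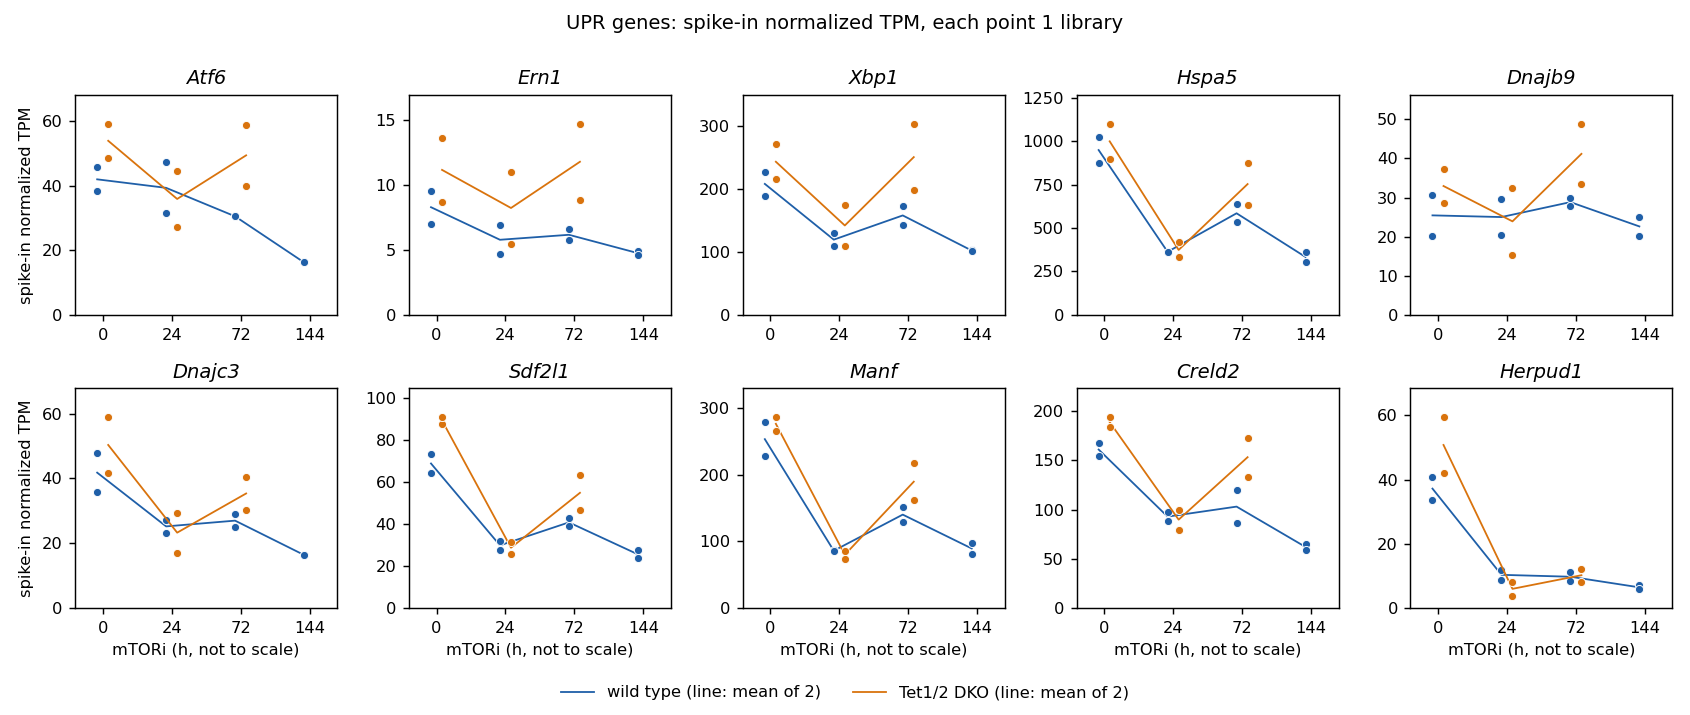
Spike-in normalized TPM (vertical axis, from 0) of the 10 UPR genes against time in mTORi (horizontal axis, not to scale) in WT (blue) and DKO (orange) cells. Each point is 1 library and lines join the means of 2. The means of Hspa5, Manf, Sdf2l1 and Creld2 were lower at 24 h than at 0 h and higher again at 72 h in both lines, Herpud1 stayed low at 72 h, and Dnajb9 libraries of 0 and 24 h overlapped.

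The first comparison asked which UPR genes changed within 1 day of mTORi in WT cells. Herpud1, Manf, Hspa5 and Sdf2l1 were called lower at 24 h and stood at 27.8%, 33.9%, 38.3% and 43.4% of their 0 h means. The sensors Atf6 and Ern1 and the co-chaperone gene Dnajb9 were not called. Hspa5 was at 873 and 1025 spike-in normalized TPM in the 0 h libraries and at 364 and 362 after 24 h. In deposited TPM the same libraries held 414 and 485 against 254 and 195. The groups did not overlap on either scale, and the fold change was −1.38 ± 0.26 (adjusted p = 0.00292) relative to spike-in and −1.01 ± 0.15 (adjusted p = 0.00087) in deposited TPM. Manf was at 228 and 278 at 0 h and at 87.0 and 84.8 after 24 h relative to spike-in, with a fold change of −1.54 ± 0.26 (adjusted p = 0.00123). Sdf2l1 was at 73.3 and 64.0 at 0 h and at 27.5 and 32.0 after 24 h (−1.18 ± 0.27, adjusted p = 0.0102). Among the fold changes of the 18232 genes tested, that of Hspa5 lay at the 3.66 percentile, that of Manf at the 2.30 and that of Sdf2l1 at the 6.58.

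Herpud1, which encodes an ER membrane protein that organizes the ER-associated degradation machinery, fell most. It was at 33.6 and 40.7 spike-in normalized TPM in the WT 0 h libraries, 8.82 and 11.9 after 24 h, 11.2 and 8.33 after 72 h and 7.03 and 5.85 after 144 h. The 6 libraries in mTORi were all below both 0 h libraries. Deposited TPM gave 15.9 and 19.3 at 0 h, 6.15 and 6.40 after 24 h, 6.76 and 5.59 after 72 h and 6.57 and 5.85 after 144 h. Relative to spike-in the fold change was −1.76 ± 0.36 after 24 h (adjusted p = 0.00503), −1.84 ± 0.36 after 72 h (adjusted p = 0.00568) and −2.36 ± 0.36 after 144 h (adjusted p = 0.00015). In deposited TPM it was −1.35, −1.37 and −1.36, and the means were 35.6%, 35.1% and 35.3% of that at 0 h.

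In all, 4 of the 10 genes were called lower and 0 higher in WT at 24 h, against 8.73% of all genes lower and 1.25% higher. In deposited TPM, 5 genes were called lower (the same 4 and Xbp1, −0.42) against 15.7% of all genes. With a replicate block within each genotype, which compares libraries of the same replicate number, 7 were called lower against 25.7% of all genes, with Xbp1, Creld2 and Dnajc3 added. Hspa5, Herpud1 and Sdf2l1 lost their call without the second WT 0 h library. Herpud1 and Sdf2l1 also lost it without the first WT 24 h library, whereas Manf kept its call in both cases. Sdf2l1 also lost its call without the first WT 0 h library (adjusted p = 0.105). The median of the 10 genes was 0.46 below that of all genes, and 8 of them were below it.

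At 72 h fewer of the 10 genes were called against 0 h. Hspa5 stood at 637 and 533 spike-in normalized TPM, between its 0 and 24 h libraries, and Manf at 152 and 128. Of the 10 genes 2 were called lower (Herpud1, and Manf by −0.85 ± 0.26 with an adjusted p of 0.0464), against 7.6% of all genes. Manf was the less secure call: its adjusted p ran up to 0.363 when single libraries were left out, and it lost its call in deposited TPM (−0.42, adjusted p = 0.103). Herpud1 lost its call without the second WT 0 h library (adjusted p = 0.0799) or without the second WT 72 h library (adjusted p = 0.134). With the replicate block 6 genes were called lower against 25.4% of all genes, Hspa5, Sdf2l1, Creld2 and Dnajc3 among them. In deposited TPM Herpud1 was called lower (12.8% of all genes were) and Dnajb9 higher (0.59 ± 0.19, adjusted p = 0.0401), against 14.4% of all genes called higher.

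The step from 24 to 72 h was added after these values were seen. In WT 0 of the 10 genes were called on the spike-in scale, where 0.428% of all genes were called higher and 0.559% lower, and 2 of the 10 had an unadjusted p under 0.05, as did 10.2% of all genes. Both 72 h libraries were above both 24 h libraries for 4 of the 10, as for 20.2% of all genes, and below both for 1 (Atf6), as for 20.8% of all genes. In deposited TPM 3 genes were called higher at 72 h than at 24 h (Manf 0.74, Hspa5 0.73 and Xbp1 0.45), against 6.13% of all genes, and spike-in values centred on the median also gave 3 higher, against 4.34% of all genes. With the replicate block the spike-in scale gave 1 call (Manf, 0.69, adjusted p = 0.0487), against 3.2% of all genes. Herpud1 had a fold change of −0.08 over this step, and its 24 h and 72 h libraries overlapped.

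At 144 h, 8 of the 10 genes were called lower than at 0 h on the spike-in scale. This count has to be read against a fall of most of the transcriptome, since 50.5% of all genes were called lower and 82.1% had both 144 h libraries below both 0 h libraries. Hspa5 was at 361 and 306, Manf at 97.2 and 81.3, Sdf2l1 at 27.4 and 23.6 and Creld2 at 65.5 and 58.6 spike-in normalized TPM. The sensor Atf6 was at 16.2 and 16.3, 38.7% of its 0 h mean, after 31.4 and 47.3 after 24 h and 30.5 in each library at 72 h. Xbp1 was at 104 and 101 and Dnajc3 at 16.4 in both. Ern1 (4.93 and 4.60) and Dnajb9 (20.3 and 25.0) were not called. Ern1 was called under the replicate block (−0.68, adjusted p = 0.0182). Xbp1 and Dnajc3 lost their call without the second WT 0 h library (adjusted p = 0.0846 and 0.0596), and Xbp1 also without the second WT 144 h library (adjusted p = 0.0618).

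In deposited TPM the 144 h picture split. Herpud1 (−1.36) and Hspa5 (−0.48 ± 0.15, adjusted p = 0.0366) were called lower against 12.7% of all genes, and Dnajb9 was called higher against 17.4%. With the replicate block in deposited TPM 6 genes were called lower, against 16.7% of all genes, with Atf6, Sdf2l1, Creld2 and Manf added (−0.32 to −0.47), and Dnajb9 was again called higher, against 22% of all genes. Centring the spike-in values on the median gave 6 lower and 1 higher, against 15.2% and 13.7% of all genes. Dnajb9, a co-chaperone of BiP that dampens IRE1 and is itself a classical XBP1 target, was at 9.60 and 14.5 deposited TPM at 0 h, 14.3 and 16.0 after 24 h, 18.1 and 18.6 after 72 h and 19.0 and 25.0 after 144 h. The 72 and 144 h libraries were above both 0 h libraries (0.83 ± 0.19 after 144 h, adjusted p = 0.00908). Relative to spike-in the gene was at 20.3 and 30.6 at 0 h and within 20.3 to 25.0 after 144 h, with a fold change of −0.14 ± 0.36 (adjusted p = 0.75). Dnajb9 thus rose as a share of the transcriptome and was not called relative to spike-in. Xbp1 showed 89.8 and 108 deposited TPM at 0 h and 97.0 and 101 after 144 h, and its fold change went from −1.01 relative to spike-in to 0.0097.

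**Figure D2:**
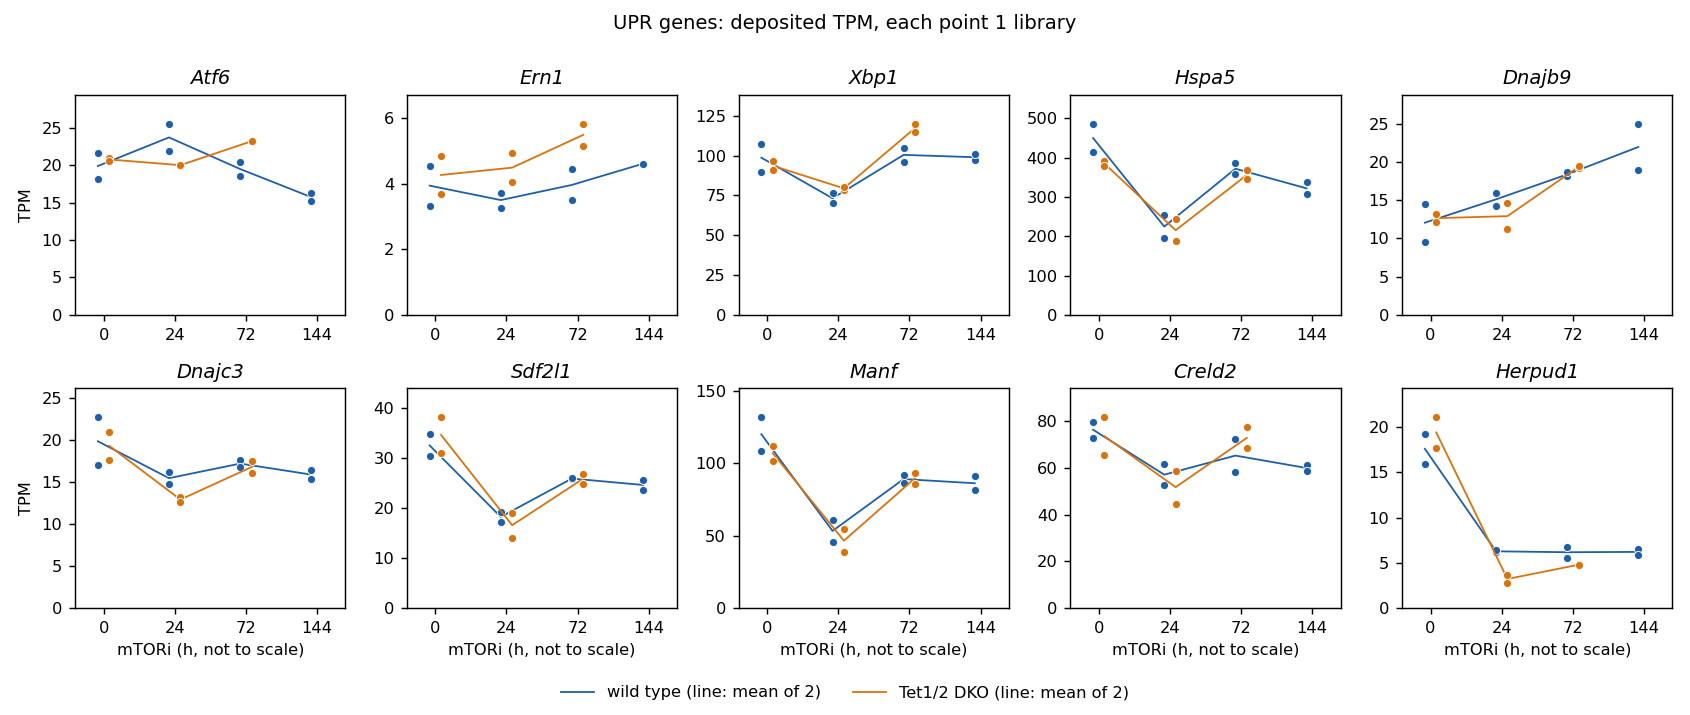
Deposited TPM (vertical axis, from 0) of the same 10 genes by library, with the same colours and axes; lines join the means of 2 libraries. Dnajb9 stood higher at 72 and 144 h than at 0 h, the 144 h libraries of Xbp1 lay within its 0 h range, and Herpud1 stayed near 6 TPM in WT and below 5 TPM in DKO under mTORi.

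From 72 to 144 h in WT, 0 of the 10 genes were called, where 0.389% of all genes were called lower, and 7 of the 10 had an unadjusted p under 0.05, as did 19.1% of all genes. All 10 genes had both 144 h libraries below both 72 h libraries on the spike-in scale, as did 81.6% of all genes tested. With the replicate block 7 were called lower (−0.62 for Xbp1 to −0.87 for Atf6), against 18.5% of all genes. In deposited TPM 0 were called over this step, with 1 at an unadjusted p under 0.05 (all genes 10.8%), and with the block there were likewise 0 calls.

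DKO cells were treated for up to 72 h. In the 24 h libraries 6 genes were called lower than at 0 h, against 18.7% of all genes, and 0 higher, against 0.505%. Herpud1 was at 59.4 and 42.1 spike-in normalized TPM at 0 h and at 8.22 and 3.73 after 24 h, or 11.8% of its mean. Its fold change of −2.95 ± 0.36 (adjusted p = 7.28e-05) lay at the 0.12 percentile of all genes. Hspa5 fell from 1099 and 899 to 417 and 331 (−1.42 ± 0.26, adjusted p = 0.00149). Manf was at 286 and 266 at 0 h and at 85.6 and 74.1 after 24 h (−1.78 ± 0.26, adjusted p = 0.00026), and Sdf2l1 at 87.5 and 90.7 and then 31.4 and 25.9 (−1.61). These 4 genes did not overlap between 0 and 24 h. In all, 8 of the 10 had both 24 h libraries below both 0 h libraries, as did 46.3% of all genes. Dnajc3, which encodes a co-chaperone that also inhibits PERK, had a fold change of −1.11 and Creld2 one of −1.07, and both were called. Neither kept its call when the fit held only these 2 groups (adjusted p = 0.248 and 0.194), without the first DKO 0 h library (0.239 and 0.0758) or without the second DKO 24 h library (0.185 and 0.0522), and Creld2 lost it without the second DKO 0 h library (0.0693). In deposited TPM the same 6 genes were called lower, against 15.1% of all genes. The replicate block called 8, with Xbp1 and Atf6 added, against 38.1% of all genes.

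At 72 h in DKO, Herpud1 was the only gene called, at 12.2 and 8.20 (−2.21 ± 0.36, adjusted p = 0.00183), where 2.95% of all genes were called lower. The call was narrowly lost without the second DKO 72 h library (−1.95, adjusted p = 0.0513). Hspa5 was at 872 and 634 and Manf at 217 and 161, each below both of its 0 h libraries and neither called. In deposited TPM Herpud1 was called lower (4.83 and 4.75 against 21.1 and 17.7 at 0 h), where 10.2% of all genes were. There Dnajb9 (0.58) and Xbp1 (0.32) were called higher against 18.8% of all genes. With the replicate block Sdf2l1 was also called on the spike-in scale (−0.71, adjusted p = 0.0259), 2 genes in all against 13.2% of all genes.

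From 24 to 72 h in DKO, a step also added after the values were seen, all 10 genes stood higher in both 72 h libraries than in both 24 h libraries in deposited TPM, as did 38.6% of all genes. On the spike-in scale 7 of the 10 did, against 24.1% of all genes. Manf was called higher (1.22 ± 0.26, adjusted p = 0.0171), 1 gene of 10 against 1.32% of all genes. In deposited TPM 4 genes were called higher, namely Manf (0.95), Hspa5 (0.73), Sdf2l1 (0.63) and Xbp1 (0.56), against 5.18% of all genes. The replicate block called 6 on the spike-in scale, Hspa5, Xbp1, Dnajb9, Sdf2l1, Creld2 and Manf, against 12.7% of all genes. The spike-in calls hung on single libraries. The call of Manf was lost without the second DKO 24 h library or the first DKO 72 h library. More genes were called without the first DKO 24 h library. The shares of all genes called in these fits are not given here.

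**Figure D3:**
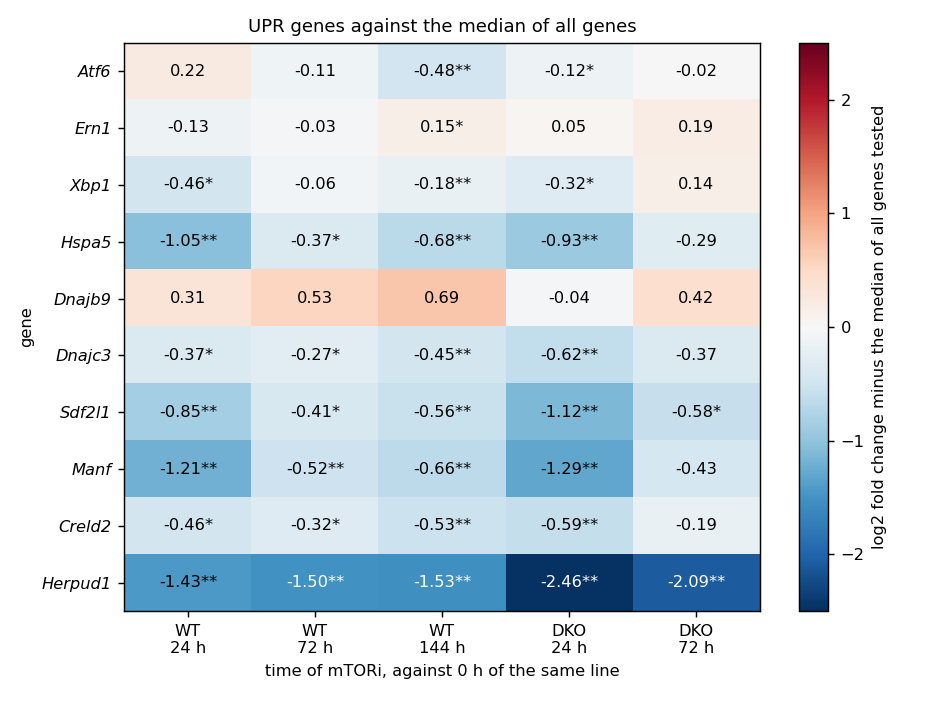
Log2 fold change of each UPR gene against 0 h of its own line, minus the median of all genes tested, on the spike-in scale (rows: genes; columns: line and time; colour and number: the difference in log2 units). Double asterisks mark calls at an adjusted p under 0.05 before subtraction, and single asterisks calls made only with the replicate block. Herpud1 was the lowest in all 5 columns, from −1.43 to −2.46, and Dnajb9 was above the median in WT at all 3 times.

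The comparison of the lines asked whether these levels or their response differed in the libraries labelled DKO. Of the 10 genes, 0 were called between DKO and WT on the spike-in scale at 0, 24 and 72 h, where 0.0439%, 0.0439% and 0.329% of all genes were called in either direction. At an unadjusted p under 0.05 there were 0, 1 and 3, against 8.35%, 4.14% and 23% of all genes. At 72 h, 8 of the 10 genes stood higher in both DKO libraries than in both WT libraries, as did 62.6% of all genes, where all genes together had a median difference of 0.49. In deposited TPM 4 of the 10 did, against 40.3% of all genes. Herpud1 was the 1 gene called in deposited TPM, at 24 h only, at 3.68 and 2.75 TPM in DKO against 6.15 and 6.40 TPM in WT (−0.80 ± 0.15, adjusted p = 0.0349), where 0.989% of all genes were called lower. On the spike-in scale its difference at 24 h was −0.77 ± 0.36 (adjusted p = 1), and with values centred on the median it was the 1 gene called lower, against 0.773% of all genes.

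The difference between the responses of the lines was tested itself, and 0 of the 10 genes were called at 24 h or at 72 h on either scale, with or without the replicate block within genotype. The shares of all genes are given here for the spike-in scale without the block only. The other counts of 0 can therefore not be set against all genes. All genes together gave 0.00548% calls at 24 h and 0% at 72 h on the spike-in scale. At an unadjusted p under 0.05 there was 1 gene at 24 h (Herpud1, −1.19 ± 0.51) and there were 0 after 72 h, against 1.22% and 0.993% of all genes. For Hspa5 the difference of the responses was −0.04 ± 0.37 after 24 h and 0.28 ± 0.37 after 72 h. No difference was detected with this error, which does not show that the lines respond alike.

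Ratios within a library do not depend on the spike-in factor. Per 100 TPM of Hspa5, Herpud1 was at 3.85 and 3.97 in WT at 0 h, 2.42 and 3.27 after 24 h, 1.75 and 1.56 after 72 h and 1.95 and 1.91 after 144 h. In DKO it was at 5.41 and 4.68, then 1.97 and 1.13, then 1.40 and 1.29. Herpud1 was thus below its 0 h ratio to Hspa5 in all 10 libraries with mTORi. Dnajb9 moved the other way, from 2.32 and 2.99 per 100 in WT at 0 h to 5.61 and 8.18 after 24 h, 4.70 and 5.21 after 72 h and 5.62 and 8.15 after 144 h. In DKO it was at 3.38 and 3.20 at 0 h, 7.81 and 4.62 after 24 h and 5.60 and 5.29 after 72 h. Xbp1 and Atf6 were likewise above both 0 h ratios of their line in all 10 libraries with mTORi. In WT after 24 h Xbp1 was at 30.1 and 35.9, against 21.7 and 22.2 at 0 h. Atf6 was at 8.62 and 13.1, against 4.38 and 4.46. Such a ratio also rises when Hspa5 falls. Relative to spike-in, the WT 24 h mean was 98.3% of that at 0 h for Dnajb9 and 38.3% for Hspa5. Manf kept close to Hspa5, at 20.5 to 29.6 per 100 over all 14 libraries. These ratios are descriptions and were not tested.

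**Figure D4:**
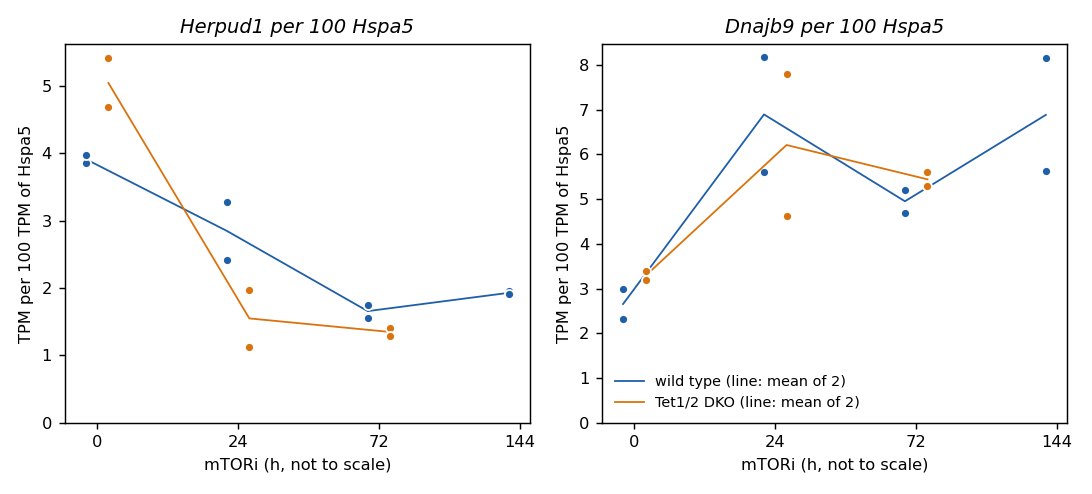
TPM of Herpud1 (left) and Dnajb9 (right) per 100 TPM of Hspa5 in the same library (vertical axes, from 0) against time in mTORi (not to scale), in WT (blue) and DKO (orange); each point is 1 library and lines join means of 2. All libraries with mTORi lie below the 0 h libraries for Herpud1, and above them for Dnajb9.

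Among 8767 genes with a mean of at least 10 deposited TPM, the 10 genes ranked very differently by the likeness of their pattern to that of Hspa5, measured as Pearson's r of log2(deposited TPM + 1) over the 14 libraries. These libraries share time points and a fixed total, and r is given as a description. Manf ranked 1st (0.985). The 5 highest genes outside the 10 were Pdia6 (0.983), Pdia4 (0.964), Calr (0.961), Hsp90b1 (0.950) and Prkaca (0.936). The first 4 are ER chaperones or disulfide isomerases, and Prkaca encodes a catalytic subunit of protein kinase A. Sdf2l1 ranked 17 (0.913), Creld2 166 (0.834), Dnajc3 230 (0.818) and Xbp1 486 (0.760). Herpud1 and Ern1 were under the level filter. Dnajb9 (−0.01) and the sensor Atf6 (−0.21) had no such likeness. Pdia6, for example, was at 220 and 251 deposited TPM in WT at 0 h, 125 and 106 after 24 h, 187 and 179 after 72 h and 175 and 172 after 144 h. Its promoter (plus strand), that of Calr and both strands of that of Hsp90b1 (minus strand) also held the ER stress response element, and those of Pdia4 and Prkaca held no match to it. Of the list of ER chaperones and oxidoreductases, 5 of the 18 genes with an entry had a match.

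Pdia6, chr12:17266486-17266514: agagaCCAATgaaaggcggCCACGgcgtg

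Hsp90b1, chr10:86705633-86705661: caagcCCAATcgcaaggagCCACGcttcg

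The rest of the pathway was read from 5 further lists. Of 21 ER chaperones and oxidoreductases tested, 9 were called lower in WT at 24 h, 2 after 72 h (Creld1 and the oxidase gene Ero1l) and 17 after 144 h, where 8.73%, 7.6% and 50.5% of all genes were. In DKO 15 were called lower after 24 h and 0 after 72 h, where 18.7% and 2.95% of all genes were. None was called higher, and relative to all genes the list's median was −0.40, −0.28 and −0.34 in WT and −0.57 and −0.30 in DKO. At 72 h in DKO 5 of the 21 had an unadjusted p under 0.05, near the 19.7% of all genes. Creld1, a relative of Creld2, fell most at 144 h (−1.53). In deposited TPM 20 of the list were tested, of which 11 were called lower in WT and 14 in DKO at 24 h and 7 in WT at 144 h, against 15.7%, 15.1% and 12.7% of all genes. In each of these comparisons 1 was called higher, against 17.6%, 13.2% and 17.4% of all genes.

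Of 19 genes of translocation into the ER and signal peptide processing, 4, 4 and 17 were called lower in WT at 24, 72 and 144 h (all genes 8.73%, 7.6% and 50.5%) and 11 and 2 in DKO at 24 and 72 h (all genes 18.7% and 2.95%). The 4 genes were the same at both WT times, Sec61b, Sec61g, Ssr2 and Ssr3, and Sec61b and Ssr2 were the 2 in DKO. Sec61g, a subunit of the channel through which new proteins enter the ER, fell most at 144 h, from 304 and 342 to 87.6 and 76.1 spike-in normalized TPM (−1.97 ± 0.29). It was also called lower in deposited TPM (−0.94).

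The 18 genes of ER-associated degradation return misfolded proteins to the cytosol for destruction. None was called lower in WT at 24 or 72 h (smallest adjusted p at 24 h 0.058, with 2 of the 18 at an unadjusted p under 0.05, against 26.7% of all genes), where 8.73% and 7.6% of all genes were, and 2 were in DKO at 24 h (Vcp and Ube2g2), against 18.7%. At 72 h in WT 3 of the 18 had an unadjusted p under 0.05, against 25.7% of all genes. At 144 h in WT 11 were called lower, near the 50.5% of all genes, with the largest fall for Nploc4 (−1.31), a cofactor of the extraction ATPase VCP. Derl3, a Derlin that is strongly inducible by the UPR, was called higher. It was at 13.8 and 22.5 spike-in normalized TPM in WT at 0 h, 22.8 and 30.9 after 24 h, 47.1 and 42.1 after 72 h and 40.7 and 37.6 after 144 h. All 4 libraries of 72 and 144 h were above both 0 h libraries, with fold changes of 1.29 ± 0.32 (adjusted p = 0.0199) and 1.10 ± 0.32 (adjusted p = 0.00949), where 0.697% and 0.461% of all genes were called higher. In DKO Derl3 was at 14.4 and 12.2 at 0 h, 22.5 and 15.5 after 24 h and 40.5 and 28.1 after 72 h (1.28, adjusted p = 0.0319, against 0.713% of all genes). In deposited TPM it was called higher at every time in both lines, by 2.05 in WT at 144 h. The ER stress response element also stood in its promoter and in that of Syvn1, out of 14 of the list with an entry.

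The PERK branch had the lowest median of the 6 lists at 72 and 144 h in WT and at both times in DKO. Of its 8 genes, 4, 4 and 7 were called lower in WT at 24, 72 and 144 h, where 8.73%, 7.6% and 50.5% of all genes were, and 6 and 5 in DKO at 24 and 72 h, where 18.7% and 2.95% were. Atf4, Trib3 and Chac1 were among them at every time, with Eif2s1 at 24 h and Ddit3 at 72 h in WT and Ddit3 and Atf3 at 72 h in DKO. Relative to all genes the list's median was −0.46, −0.89 and −0.84 in WT and −1.10 and −1.39 in DKO. These genes also answer to amino acid shortage and other stresses through ATF4. Chac1, a glutathione-degrading enzyme and ATF4 target, fell most. It was at 42.7 and 46.2 spike-in normalized TPM in WT at 0 h, 8.05 and 12.0 after 24 h, 6.47 and 2.77 after 72 h and 2.55 and 2.24 after 144 h (−3.74 ± 0.39, adjusted p = 4.75e-06). In DKO it was at 60.3 and 39.2 at 0 h, 1.83 and 0.658 after 24 h and 1.99 and 1.44 after 72 h. At 24 h it was lower in DKO than in WT on both scales (−2.33 ± 0.39, adjusted p = 0.02, relative to spike-in), 1 of 8 genes of the branch against 0.0329% of all genes. The difference of the responses gave 0 calls in this list at 24 h, with 5 of the 8 at an unadjusted p under 0.05, against 1.22% of all genes.

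Of the 10 other sensors and their proteases, 8 passed the filter on low values. In WT Creb3l2 was called higher at 24 h (1.39), against 1.25% of all genes. At 144 h 4 of the 8 were called lower, Atf6b, Creb3, Creb3l2 (−1.26) and Mbtps2, about the 50.5% of all genes. Of these Mbtps2, the protease that makes the second cut in ATF6, had the largest fall (−1.34). In deposited TPM Mbtps2 was not called at 144 h (−0.34, adjusted p = 0.205). In DKO 0 were called at either time on the spike-in scale, with 2 of the 8 at an unadjusted p under 0.05 after 24 h and 0 after 72 h, against 34% and 19.7% of all genes. Between DKO and WT at 72 h, no gene of the 5 lists was called on the spike-in scale, and 1 to 8 genes of each list had an unadjusted p under 0.05, against 23% of all genes.

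**Figure D5:**
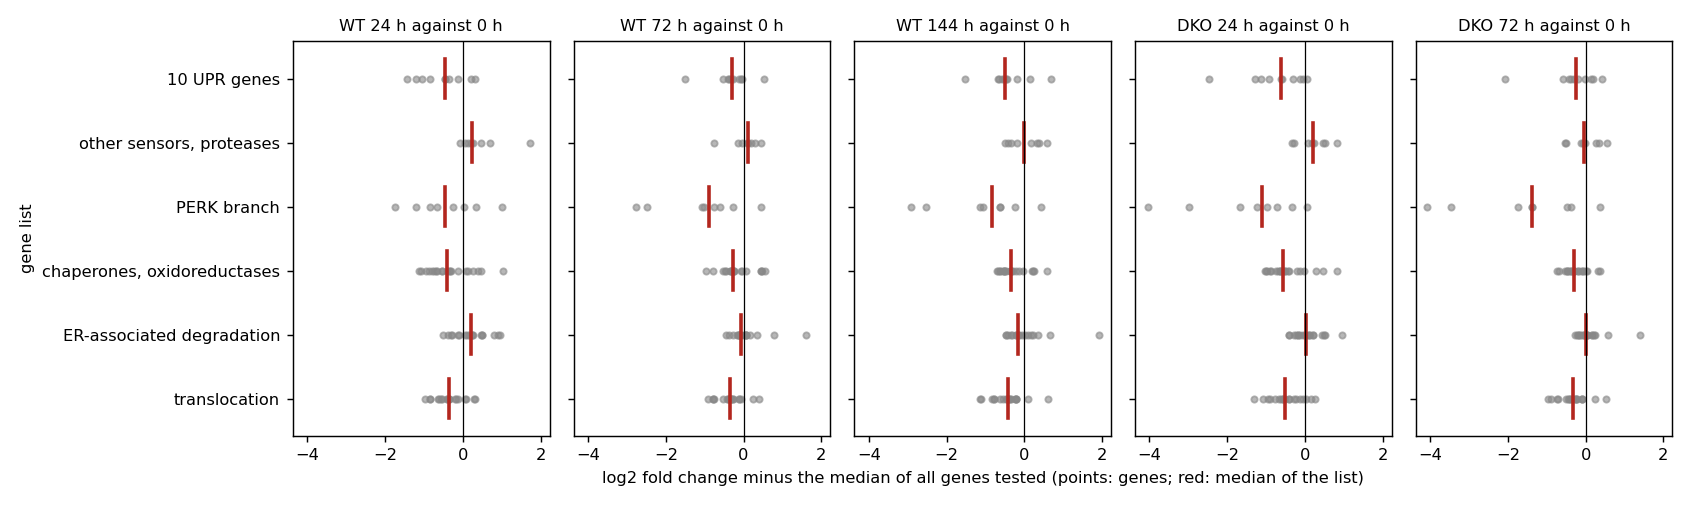
Log2 fold change against 0 h minus the median of all genes tested, on the spike-in scale (horizontal axis, log2 units), for each gene (grey points) of 6 UPR lists (rows) in 5 comparisons (panels); red bars are the medians of the lists. The medians of the 10 UPR genes lie at −0.46, −0.30, −0.51, −0.61 and −0.24, those of the PERK branch further left at 72 and 144 h in WT and at both times in DKO, and Derl3 is the point furthest right among ER-associated degradation at 72 and 144 h.

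The genes are protein-coding genes of the mm10 genome, and most stand clear of other genes in the GENCODE vM21 annotation, where each has the span given in the files. Hspa5 spans chr2:34771970-34777547 and Herpud1 chr8:94386438-94395377. Manf (chr9:106838312-106891979) overlaps Rbm15b on its own strand and Dcaf1 on the other, whose TPM reach up to 68.8, so that reads could be divided between them. Atf6 (chr1:170704674-170867771) spans 2 small genes on its strand with at most 5.74 TPM, and Dnajb9 and Herpud1 each overlap an opposite-strand gene under 1 TPM.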

How the data were processed

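RNA-seq was analysed for 14 libraries, 2 in each of 7 groups of genotype and time taken from the labels. The authors used cutadapt to trim reads, STAR to align them to mm10 and StringTie to quantify GENCODE VM19 genes (versions 2.4, 2.7.3a and 2.0 in the submitters' processing notes). The deposited values are TPM, which sum to 1000000 per library. TPM keep no counts, the sequencing depth was not used here, and no counting error is given. Entries sharing 1 of 10 repeated identifiers were summed, and of symbols with more than 1 identifier that with the highest mean was taken.

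The authors' spike-in factor per library was recovered as the median ratio of their supplementary expression table to the deposited TPM. Only the first listed part of that table was used, with 1993 identifiers. Of these, 482 to 539 per library had at least 1 TPM and entered the median. All factors equal 76 divided by a whole number of 27 to 76 to within 0.00017, so that rounding alone allows errors of 0.658 to 1.85%. Values were analysed as log2(TPM + 1) for genes with a mean of at least 1 (18232 genes spike-in normalized, 15878 deposited). All 7 groups were fitted in limma 3.58.1 (R 4.3.3; empirical Bayes with trend), with Benjamini-Hochberg adjustment over all genes of a comparison; two-sided adjusted p under 0.05 was called. The pipeline was tested on simulated data. The authors used DESeq2 on StringTie output, a count test that TPM do not allow. The replicates are taken as separate cultures only as far as the labels go, and p-values measure the spread between libraries.

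Replicate numbers pair libraries within a genotype: the paper's reporting summary states parallel processing of the time points of a replicate, and replicate differences correlated over genes at 0.222 to 0.341 within DKO (3 of 3 pairs over 0.1) and 0.0622 to 0.398 within WT (5 of 6), while 10 of 12 pairs between genotypes were below 0. The main fit holds the groups only and does not use this pairing. A block within genotype was an alternative, and it leaves no test of DKO against WT.

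The genes and lists were chosen with earlier results of these data known. Named beyond the 10 genes are, of each list, the called gene of largest rise and largest fall relative to all genes in WT at 144 h against 0 h and in DKO against WT at 72 h, the 5 genes most like Hspa5, and Tet1 and Tet2. Genes named beside a promoter match, an overlap or a count of 5 or fewer fall outside this rule and were chosen after their values were seen. Promoters are from RefSeq.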

Additional observations from a re-analysis of the deposited data

How the results depend on the processing

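Counts of the 10 genes called moved with several of the alternatives. With the replicate block within genotype the counts were 7 in WT at 24 h, 6 at 72 h, 7 for WT 144 h against 72 h, 2 in DKO at 72 h, 1 for WT 72 h against 24 h and 6 for DKO 72 h against 24 h; the block moved no other count by over 1.5 times. In deposited TPM they were 3 in WT at 144 h, 3 in DKO at 72 h (2 of them higher, where the spike-in scale gave 1 lower), 1 for DKO against WT at 24 h, 3 for WT 72 h against 24 h and 4 for DKO 72 h against 24 h. Both together gave 7 in WT at 24 h (6 lower and Atf6 higher; all genes 19.5% and 21.5%), 7 in WT at 144 h (6 lower, 1 higher; 16.7% and 22%), 4 in DKO at 72 h (2 lower, 2 higher; 13.6% and 24.8%), 5 for WT 72 h against 24 h (1 lower, 4 higher; 9.89% and 9.69%) and 6 higher for DKO 72 h against 24 h (10.9%). Centring on the median gave 3 lower in DKO at 72 h (all genes 16.6%), 1 lower for DKO against WT at 24 h (0.773%), 3 higher for WT 72 h against 24 h (4.34%) and 2 higher for DKO 72 h against 24 h (1.99%). For WT at 72 h a pseudocount of 0.1, no filter or no trend left 1 call; fitting only the groups compared gave 6 there, 7 for WT 144 h against 72 h and 0 for DKO 72 h against 24 h. Leaving out single libraries gave 1 to 6 calls in WT at 24 h, 0 to 5 in WT at 72 h (0 without the second 0 h or second 72 h library, 5 without either DKO 24 h library), 6 to 8 in WT at 144 h, 4 to 9 in DKO at 24 h, 0 to 1 in DKO at 72 h and 0 to 8 for DKO 72 h against 24 h. The fold change of Xbp1 in WT at 144 h reversed to 0.0097 in deposited TPM, with and without the block. The comparisons of 72 h against 24 h in each line and their alternatives were added after seeing the data. The cause of these moves was not tested. With 2 libraries a group, the spread rests on all groups together.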

Other observations

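The summed TPM of the 10 genes gives the level of the whole group. It was 790 and 911 deposited TPM in WT at 0 h, 533 and 447 after 24 h, 745 and 690 after 72 h and 672 and 639 after 144 h. In DKO it was 766 and 773 at 0 h, 418 and 507 after 24 h and 712 and 749 after 72 h. The 24 h libraries of each line were thus the lowest of that line, and the 72 h libraries were above them in both. Relative to spike-in the WT sum was 1667 and 1922 at 0 h and 720 and 639 after 144 h, where the 144 h libraries were the lowest of the line. Hspa5 made up between 43.7% and 53.3% of the sum over all libraries, with its lowest share in a WT 24 h library.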
